A study of Homo sapiens with 8 samples.

Results

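Interferon-stimulated genes (ISGs), the antiviral genes that cells switch on when interferon binds its receptors, were examined in HCT116 cells, an established line from a human colorectal carcinoma, with and without depletion of the DNA dioxygenase *TET1* and with and without the DNA methyltransferase inhibitor 5-aza-2'-deoxycytidine (5-aza-dC). The set holds 45 gene names chosen for their known induction by interferon and matched to the gene name of each probe that is not a control. All 45 were on the array, as 58 distinct probes, out of 34423 gene names in all. A probe entered the tests if both arrays of some condition had it well above background, and 34 of the 45 genes had such a probe (39 probes). Where a gene had several, it is described by the brightest tested probe. Of these 34 genes, 28 were above background on all 8 arrays, and the other 6 (*IFIT3*, *OAS2*, *MX1*, *GBP2*, *BST2* and *HERC6*) were below it on at least 1 array, so counts over the 34 are given as a description of genes with a measurable signal.

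The data are 8 one-color expression arrays, 1 for each of 4 clones and 2 treatments. CONT1 and CONT2 carried the negative control plasmid pcDNA6.2-GW/EmGFP-miR-neg. TET1-KD1 and TET1-KD2 each carried a vector with a different artificial miRNA against *TET1* (miTET1-1 and miTET1-2). All clones, the controls included, had been selected with G418 as stable transfectants, and each was studied without treatment and after 72 h in 1 µM 5-aza-dC, with drug and medium renewed daily. Each condition thus holds 2 arrays from 2 clones (n = 2), each knockdown line is a single clone with its own miRNA, and every value describes a whole culture, in which fewer expressing cells and less RNA per cell cannot be told apart. The assignment follows the titles, which list an untreated and a treated array of each clone, and not a second label, which marks the controls as mock and the knockdown arrays as treated throughout.

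Over the arrays, the 75th percentile of the spot signal ran from 396 to 624, and 29490 to 34276 of 58717 spots were well above background. Without the drug, the brightest *TET1* probe read 9.70 in CONT1 and 9.75 in CONT2 on the log2 scale, against 8.65 in TET1-KD1 and 9.41 in TET1-KD2, a difference of -0.69 ± 0.29 (SE) between the kinds of clone with a limma adjusted p of 0.61. The epithelial marker list (6 genes) was above background on all 8 arrays. The 6 arrays of the untreated clones and the treated knockdown clones shared a slide, while both treated control arrays were on a slide scanned 230 days later. Slide and drug therefore cannot be told apart in the response of the control clones, nor in the difference between the kinds of clone, whereas the response of the knockdown clones and the untreated comparison lie within 1 slide. Spike-in signals before scaling differed by up to -1.0 on the log2 scale between the later and the first slide (SD 0.0364 among the 6 arrays of the first slide for that spike-in), and by -0.0380 for the brightest.

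Interferons bind receptors on the cell surface and activate the kinases JAK1 and TYK2, which phosphorylate STAT proteins. STAT2 and IRF9 belong to the complex ISGF3, which enters the nucleus and binds the interferon-stimulated response element in the promoters of ISGs. The products of these genes bind or degrade viral RNA, block viral entry or release, and attach the ubiquitin-like protein ISG15 to other proteins. DNA methyltransferase inhibitors are known to turn on ISGs in some cancer cells, where transcripts of demethylated repeats are sensed as foreign RNA.

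The core of the response element, read as GAAA, any 2 bases and GAAA on either strand, was looked for in RefSeq promoters (GRCh38.p14) from 250 bases before to 50 bases after each start. An entry was found for 37 of the 45 genes, and 26 of these (70.3%) held the core, against 4.38% of 27305 genes with an entry. Overlapping matches were counted separately, and a match is a description of the letters only. Windows of 30 bases are shown on the strand of the gene for some of the members that held the core, with the core in capitals. They lie at chr19:17405741-17405770 (minus strand) for *BST2*, and on the plus strand at chr14:94110618-94110647 for *IFI27*, chr11:314024-314053 for *IFITM1*, chr21:41420559-41420588 for *MX1*, chr1:1013374-1013403 for *ISG15*, chr15:88638937-88638966 for *ISG20* and chr12:112938321-112938350 for *OAS3*.
BST2: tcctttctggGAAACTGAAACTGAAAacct
IFI27: atgtctgcagTTTCGGTTTCctggaaaatg
IFITM1: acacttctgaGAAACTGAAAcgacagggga
MX1: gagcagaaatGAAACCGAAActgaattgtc
ISG15: catgcctcggGAAAGGGAAACCGAAActga
ISG20: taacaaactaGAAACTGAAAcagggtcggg
OAS3: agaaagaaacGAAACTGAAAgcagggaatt
The windows of *BST2* and *ISG15* hold overlapping cores. The core marked in *IFI27* is read on the opposite strand, and another one, on the strand of the gene, starts in this window and ends after it. The core in the *MX1* window starts 11 bases after the start site. The entries of *CMPK2*, *HERC6*, *IFI16*, *IFI35*, *IRF9*, *OAS1*, *SAMD9L*, *SP110*, *STAT2*, *UBE2L6* and *XAF1* held no core. *OASL*, *MX2*, *GBP2*, *OAS2*, *IFITM2*, *IFIT2*, *TRIM22* and *USP18* had no entry in the promoter table used here.

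In the control clones, 5-aza-dC raised *IFI27*, *OASL* and *IFIT5* and lowered *OAS3*, *CMPK2* and *UBE2L6*, whereas the other 28 tested ISGs did not pass the test. Thus 3 of 34 (8.82%) rose, against 20.5% of the 19688 gene names tested, and 3 (8.82%) fell, against 21.3%. Their median change was 0.12 on the log2 scale, beside -0.05 over all genes. An unadjusted limma p below 0.05 was found for 9 of the 34, beside 10081 of the 19688 gene names. Leaving out any 1 of the 4 control arrays left 0 or 1 ISG higher and 1 lower, *UBE2L6*. In the knockdown clones, *IFI27* rose and no ISG fell, which is 1 of 34 (2.94%) against 9.45% of all genes higher and 0 against 3.09% lower. The median change was 0.14 beside -0.06, and 6 of the 34 had an unadjusted limma p below 0.05, beside 5715 of the 19688 gene names. No test of the set was made.

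The same clone was measured before and after the drug, so a fit with clone as a block was also made. It called 7 ISGs higher in the control clones (*BST2*, *OASL*, *GBP2*, *IFI27*, *IFIT5*, *IRF9* and *IFITM1*), against 25% of all genes, and 5 lower (*OAS3*, *UBE2L6*, *CMPK2*, *IFIT3* and *HERC5*), against 25.6%. In the knockdown clones it called 4 higher (*BST2*, *IFITM1*, *OASL* and *IFI27*), against 11.2%, and none lower, against 4.51%. In the knockdown clones this is 11.8% of the ISGs higher. *GBP2* entered the tests only through the treated control arrays, where it is high, so its call is no support for a rise. The block takes out differences in level between clones, which the fit of group means counts as spread.

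**Figure D1:**
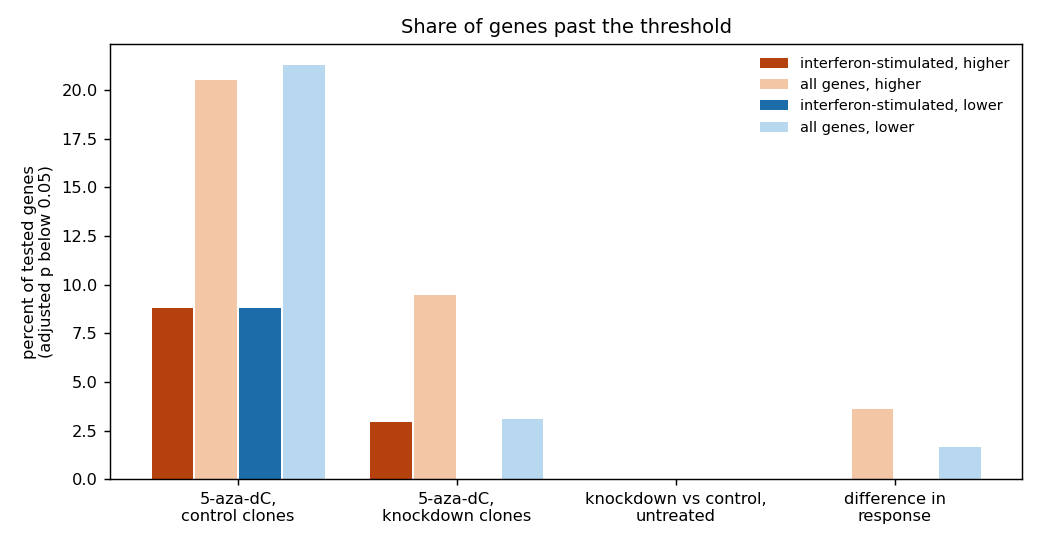
Bars give the percent of tested genes with an adjusted p below 0.05 in the fit of group means, for 34 ISGs (dark) and 19688 gene names (light), higher and lower separately, in the 4 comparisons. The bars of the ISGs stand at 8.82% higher and 8.82% lower in the control clones and at 2.94% higher in the knockdown clones, and none was called in the untreated comparison or in the difference in response.

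**Figure D2:**
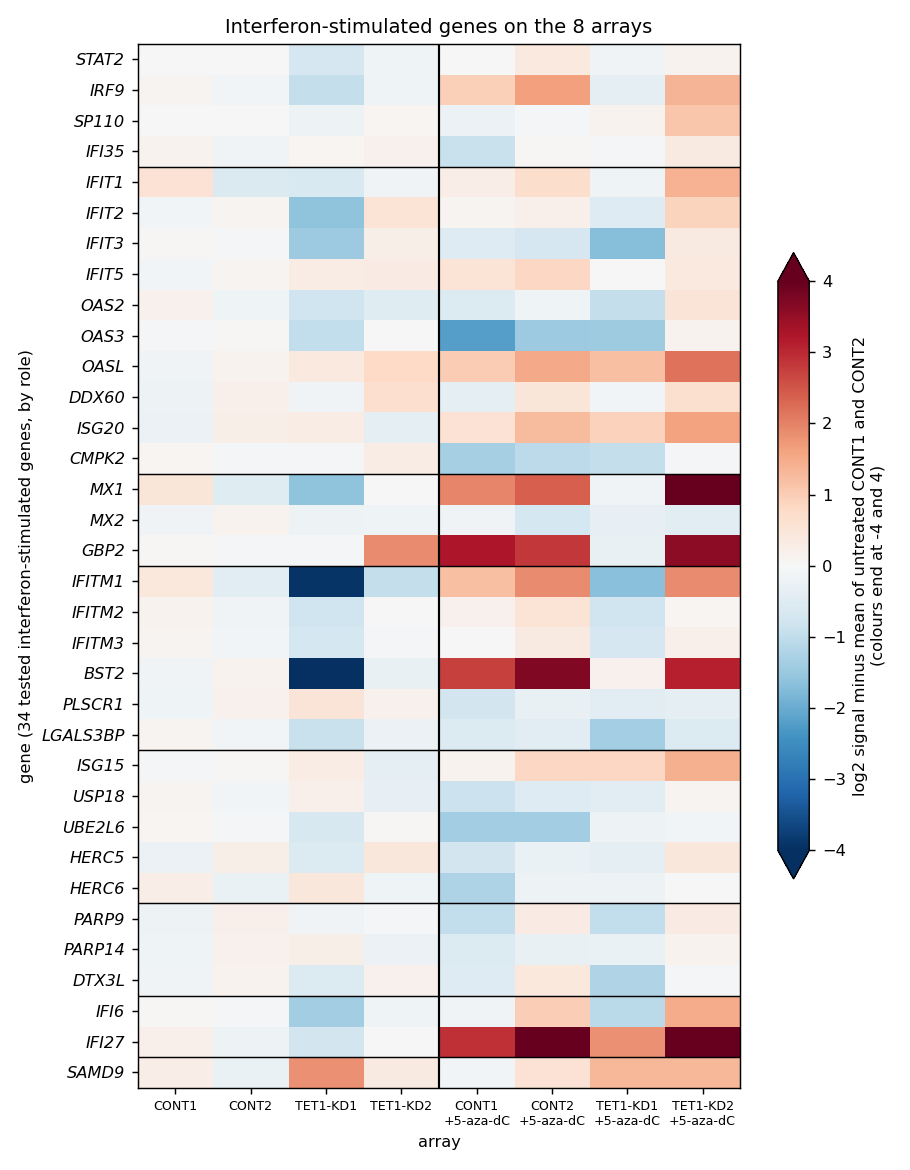
Each row is 1 of 34 ISGs, grouped by role from nuclear factors at the top to other induced genes at the bottom, and each column is 1 array; color gives the log2 signal minus the mean of untreated CONT1 and CONT2. Red cells in the treated columns are concentrated in *MX1*, *GBP2*, *IFITM1*, *BST2* and *IFI27*, and untreated TET1-KD1 is blue for *IFITM1* and *BST2*.

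*IFI27*, which encodes a mitochondrial protein linked to apoptosis, was called in both kinds of clone by the fit of group means, with the probe used for each gene. Its probe lies at chr14:94582967-94583026 (hg19). Without the drug its log2 signal was 8.71 and 8.29 in CONT1 and CONT2, 7.77 for TET1-KD1 and 8.48 for TET1-KD2, and with it 11.42, 12.69, 10.33 and 12.79 in the same order. All treated arrays lay above all untreated arrays, and TET1-KD1 was the lowest in both states. The rise was 3.56 ± 0.83 (SE) in the control clones, or 11.8-fold (limma adjusted p = 0.0166), and 3.43 ± 0.83, or 10.8-fold, in the knockdown clones (adjusted p = 0.0480). In a fit of the knockdown arrays alone the limma adjusted p was 0.137, and in one of the 6 arrays of the first slide 0.0697. The call in the knockdown clones thus rested on the spread pooled with the control arrays. Leaving out any 1 of the 8 arrays except treated TET1-KD1 also ended it, with adjusted p-values from 0.0697 to 0.160, and without treated TET1-KD2 the rise was 2.20 (adjusted p = 0.124). The related gene *IFI6*, which encodes another mitochondrial ISG product, gave 9.81, 9.69, 8.35 and 9.58 without and 9.61, 10.73, 8.66 and 11.23 with the drug, so that CONT1 did not move up with the other clones.

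**Figure D3:**
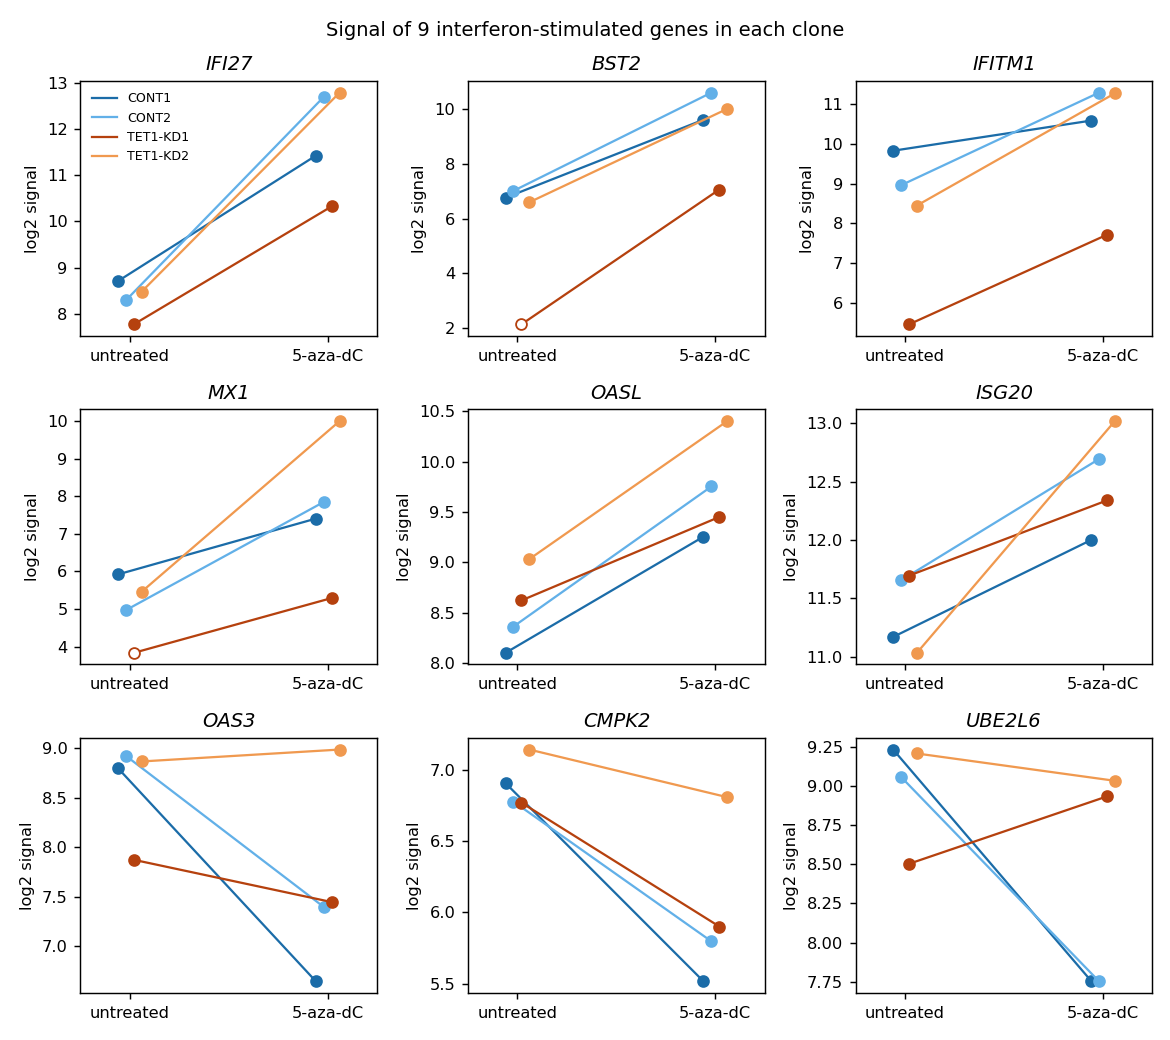
Each panel shows the log2 signal of 1 ISG in the 4 clones, untreated and after 5-aza-dC, with 1 line for each clone; open circles mark arrays on which the probe was not well above background. *IFI27*, *BST2*, *OASL* and *ISG20* have every treated array above every untreated one, while *OAS3* and *UBE2L6* fall in CONT1 and CONT2 and stay closer to their untreated level in TET1-KD2.

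Among the ISGs that encode membrane proteins, *BST2* (tetherin, which holds budding virus particles at the cell surface) was higher with the drug in every clone. Untreated, its log2 signal was 6.76 in CONT1, 7.01 in CONT2, 6.59 in TET1-KD2 and 2.13 in TET1-KD1, the last not well above background. After 5-aza-dC it was 9.61 and 10.60 in the control clones, 7.06 in TET1-KD1 and 10.01 in TET1-KD2. The measured signal moved up by 2.85 or more in every clone, and treated TET1-KD1 was close to the untreated level of the other clones. The change was 3.22 ± 1.54 (SE) in the control clones (limma adjusted p = 0.140) and 4.17 ± 1.54 in the knockdown clones (adjusted p = 0.142). With clone as a block the same changes had standard errors of 0.43 and adjusted p-values of 0.00842 and 0.0118. A dimmer *BST2* probe gave rises of 2.02 and 3.03.

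*IFITM1*, which encodes a protein that hinders the fusion of viruses with the cell membrane, followed a like pattern. It stood at 9.83, 8.96, 5.46 and 8.45 in untreated CONT1, CONT2, TET1-KD1 and TET1-KD2, and at 10.58, 11.29, 7.71 and 11.27 after the drug. Untreated TET1-KD1 was far below the other clones, and its treated level stayed below their untreated levels. The change of 2.54 ± 1.36 in the knockdown clones had a limma adjusted p of 0.285, which became 0.0355 with clone as a block, and in the control clones the change of 1.54 ± 1.36 went from 0.394 to 0.0448. Its neighbours *IFITM2* and *IFITM3* were not called: *IFITM2* ran from 14.05 to 14.97 without and from 14.06 to 15.38 with the drug, and *IFITM3* from 14.54 to 15.36 and from 14.56 to 15.61. *PLSCR1* (a phospholipid scramblase) was the reverse case, with 8.50 to 9.21 in the untreated and 7.95 to 8.37 in the treated arrays. It was the 1 ISG with every treated array below every untreated one, although its changes of -0.52 ± 0.23 and -0.72 ± 0.23 did not pass the test (adjusted p = 0.115 and 0.102). *LGALS3BP*, a secreted glycoprotein, was lower with the drug in all 4 clones (10.66 to 11.66 without and 10.16 to 11.11 with it).

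The GTPase *MX1*, which traps viral nucleoproteins, differed widely between clones. CONT1 went from a log2 signal of 5.92 to 7.41, CONT2 from 4.97 to 7.85, TET1-KD1 from 3.83 (not well above background) to 5.29 and TET1-KD2 from 5.46 to 10.00. All clones moved up, but treated TET1-KD1 lay below untreated CONT1, so the groups overlapped. The changes of 2.18 ± 1.44 and 3.0 ± 1.44 did not pass the test (limma adjusted p = 0.264 and 0.240), nor with clone as a block (0.0964 and 0.0888). The related *MX2* had 2 tested probes that disagreed. The brighter one, at chr21:42735919-42735978 (hg19) and annotated to a transcript listed in Ensembl, stayed between 5.45 and 5.77 without and between 4.93 and 5.50 with the drug. The other, at chr21:42780501-42780560 and annotated to the RefSeq transcript, was not well above background on any untreated array and reached 8.63 and 6.82 in treated CONT1 and CONT2 and 5.63 and 7.20 in treated TET1-KD1 and TET1-KD2. Against the lowest signals that were well above background it was at least 10.6-fold higher in the control clones and at least 4.04-fold higher in the knockdown clones (measured means 2.44 and 7.73, and 2.46 and 6.42). It entered the tests only through the treated arrays, where it is high, so no test is given for it. *GBP2*, an interferon-inducible GTPase, was below background on all 4 untreated arrays and reached 5.39 in CONT1, 5.00 in CONT2 and 5.74 in TET1-KD2, but not in TET1-KD1 (1.88). In the control clones it was at least 1.84-fold higher (measured means 2.17 and 5.20).

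Of the 12 ISGs whose products bind or degrade RNA, 10 were tested, and they moved in both directions. *OASL*, an OAS-like protein that aids RNA sensing, stood at 8.10, 8.36, 8.62 and 9.03 in untreated CONT1, CONT2, TET1-KD1 and TET1-KD2 and at 9.26, 9.75, 9.45 and 10.40 after the drug. The treated arrays all lay above the untreated ones, and the clones moved by 0.83 to 1.39. Its change was 1.27 ± 0.36 (SE), or 2.41-fold, in the control clones (limma adjusted p = 0.0314) and 1.10 ± 0.36 in the knockdown clones (adjusted p = 0.106, and 0.0358 with clone as a block). *ISG20*, an exonuclease that degrades viral RNA, went from 11.17 to 12.00, from 11.66 to 12.69, from 11.70 to 12.34 and from 11.04 to 13.02 in the same clones. Its groups did not overlap either, and its changes of 0.93 ± 0.38 and 1.31 ± 0.38 had adjusted p-values of 0.0953 and 0.0801. Of the 34 ISGs, 4 (11.8%) had every treated array above every untreated one (*OASL*, *ISG20*, *BST2* and *IFI27*), beside 15.1% of all genes.

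*OAS3*, a sensor that makes 2'-5'-oligoadenylates on binding double-stranded RNA, went the other way. Untreated CONT1 and CONT2 gave 8.80 and 8.92, and untreated TET1-KD1 and TET1-KD2 7.87 and 8.87, while the treated arrays gave 6.65, 7.40, 7.45 and 8.99 in this order. Both control clones lost signal, TET1-KD1 moved by -0.43, and TET1-KD2 did not fall. The fall of 1.84 ± 0.57 on the log2 scale in the control clones passed the test (limma adjusted p = 0.0439), and the change of -0.15 ± 0.57 in the knockdown clones did not (adjusted p = 0.897). The difference between these responses was 1.69 ± 0.81 (adjusted p = 0.260), so a difference between the kinds of clone was not shown. *CMPK2*, a mitochondrial nucleotide kinase, stood at 6.91, 6.78, 6.77 and 7.14 and then at 5.52, 5.80, 5.90 and 6.81, and was lower with the drug in all 4 clones. It fell by 1.19 ± 0.32 in the control clones (adjusted p = 0.0271), against a change of -0.60 ± 0.32 in the knockdown clones (adjusted p = 0.280).

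The *IFIT* genes, whose products bind viral RNA ends, did not move together. *IFIT5* rose from 10.19 and 10.38 to 10.83 and 11.12 in the control clones (0.69 ± 0.20, limma adjusted p = 0.0363) and went from 10.59 and 10.61 to 10.26 and 10.69 in TET1-KD1 and TET1-KD2. Its limma adjusted p in the control clones was 0.430, with a change of 0.24, once a trend on probe GC content was subtracted from each array. This trend was that of the array's difference from the mean of the untreated arrays. *IFIT1* gave 10.03, 8.90, 8.86 and 9.34 without and 9.73, 10.17, 9.30 and 10.87 with the drug, a fall in CONT1 and increases elsewhere. *IFIT2* ran from 5.36 to 7.50 and from 6.44 to 7.86, and *IFIT3* from 4.41 to 6.11 and from 4.16 to 6.23, with TET1-KD1 lowest in each state. *OAS2* (4.44 to 5.39 without, 4.26 to 5.73 with the drug) and the RNA helicase-like *DDX60* (7.02 to 7.88 and 6.85 to 7.85) did not pass the test in either kind of clone.

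Among the genes of the ISG15 conjugation system, *UBE2L6*, the conjugating enzyme that passes ISG15 on to its targets, fell in the control clones. Its log2 signal was 9.23, 9.06, 8.50 and 9.21 in untreated CONT1, CONT2, TET1-KD1 and TET1-KD2 and 7.76, 7.75, 8.93 and 9.03 after the drug. Both treated control arrays lay below all other arrays. The fall was 1.39 ± 0.25 (SE), with a limma adjusted p of 0.00625, and the change in the knockdown clones was 0.13 ± 0.25 (adjusted p = 0.785). The difference between the responses was 1.52 ± 0.35 with an adjusted p of 0.0609. *ISG15* itself gave 14.03, 14.15, 14.38 and 13.71 without and 14.23, 14.92, 14.92 and 15.52 with the drug, higher in all 4 clones by amounts from 0.20 to 1.81. Its change was 0.49 ± 0.35 in the control clones (adjusted p = 0.298) and 1.18 ± 0.35 in the knockdown clones (adjusted p = 0.0830). The ISG15-removing protease *USP18* (8.92 to 9.47 without, 8.41 to 9.36 with the drug) and the ligases *HERC5* (8.24 to 9.25 and 8.06 to 9.23) and *HERC6* (4.68 to 5.40 and 3.72 to 4.98) were not called by the fit of group means.

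Of the nuclear factors, *IRF9*, the DNA-binding subunit of ISGF3, was higher with the drug in every clone. CONT1 went from 9.15 to 10.00, CONT2 from 8.94 to 10.69, TET1-KD1 from 8.10 to 8.66 and TET1-KD2 from 8.87 to 10.41. Treated TET1-KD1 lay below untreated CONT1 and CONT2, so the groups overlapped. The changes were 1.30 ± 0.59 (limma adjusted p = 0.126, and 0.0416 with clone as a block) and 1.05 ± 0.59 (adjusted p = 0.311). *STAT2*, its partner, ran from 11.27 to 11.99 without and from 11.80 to 12.35 with the drug. *SP110* (9.02 to 9.28 and 8.97 to 10.33), a nuclear body protein, and *IFI35* (9.24 to 9.53 and 8.47 to 9.74), which binds leucine zipper proteins, did not pass the test. The same held for *PARP9* (7.67 to 8.06 and 6.87 to 8.20), its partner ligase *DTX3L* (6.96 to 7.69 and 6.33 to 7.94), *PARP14* (7.68 to 8.16 and 7.36 to 8.05) and *SAMD9* (4.62 to 6.70 and 4.78 to 6.21), of which *SAMD9* was highest in TET1-KD1 in both states.

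No tested probe was found for 11 ISGs: *IFI16*, *TRIM22*, *OAS1*, *RSAD2*, *GBP1*, *RTP4*, *XAF1*, *IFI44*, *IFI44L*, *SAMD9L* and *EPSTI1*. Of these, 7 were below background on all 8 arrays. The probe used for *OAS1* was well above background on 2 arrays, untreated TET1-KD1 (6.13) and treated TET1-KD2 (4.68). *TRIM22* passed in treated TET1-KD1 alone (4.40), *XAF1* in treated CONT2 (5.06) and *IFI44* in treated TET1-KD2 (5.86). Several of the classical markers of an interferon response were therefore not measurable here, with or without the drug.

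**Figure D4:**
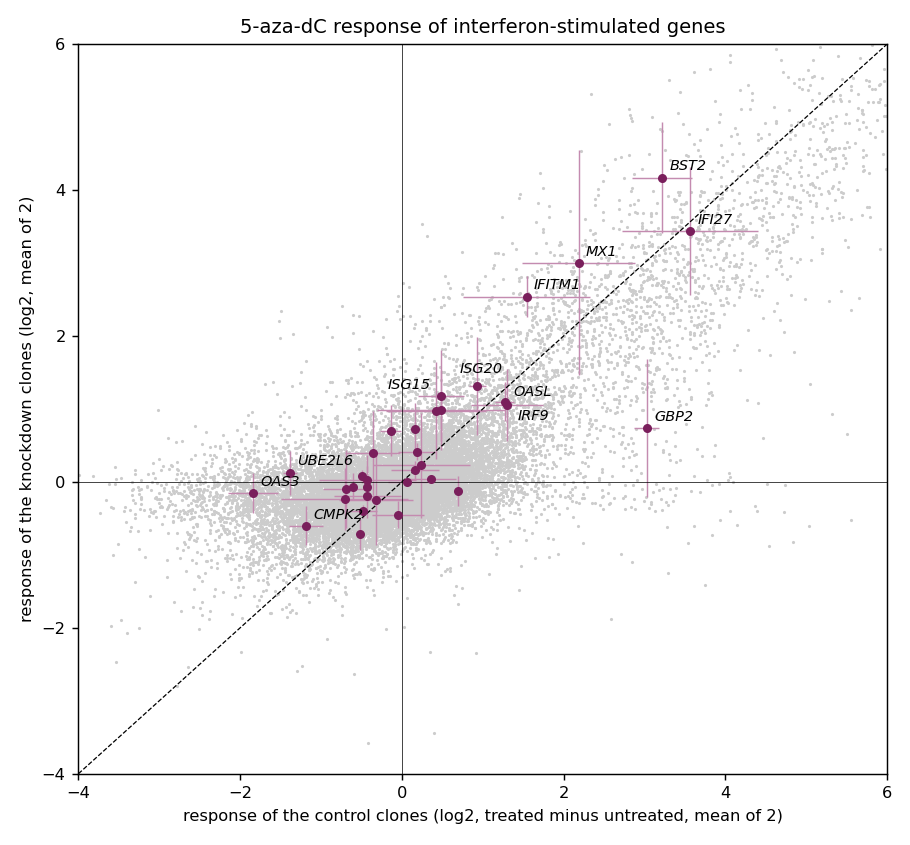
Each purple point is 1 of 34 ISGs at its mean log2 response to 5-aza-dC in the 2 control clones (horizontal) and the 2 knockdown clones (vertical), with lines to the 2 clones; gray points are all 19688 gene names (243 lie outside the axes) and the dashed line marks equal responses. *BST2*, *IFI27*, *MX1* and *IFITM1* lie far up near the line, and *OAS3*, *UBE2L6* and *GBP2* lie away from it.

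Whether depletion of *TET1* altered the response of the ISGs was tested as the difference between the responses of the knockdown and control clones. None of 34 was called in either direction, beside 3.63% of all genes with a higher and 1.64% with a lower response in the knockdown clones. An unadjusted limma p below 0.05 was found for 2 (*UBE2L6* and *IFIT5*), beside 4755 of the 19688 gene names. The clone as a block likewise called 0 in both directions. The median of the difference was 0.42 on the log2 scale, beside 0.02 over all genes. Across the 34 ISGs, the mean responses of the 2 kinds of clone correlated with Pearson's r = 0.835 and Spearman's rho = 0.796. This describes genes and not replicates, and r over all genes was 0.829.

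The individual clones also differed. The 34 ISGs had a median response of -0.23 in CONT1 and 0.29 in CONT2, and of 0.01 and 0.36 in TET1-KD1 and TET1-KD2, while the medians over all genes lay between -0.07 and -0.04. Responses above 1 on the log2 scale were found for 5 of 34 ISGs in CONT1 and 10 in CONT2, beside 17.2% and 17.4% of all genes. In TET1-KD1 and TET1-KD2 they were found for 5 and 12, beside 12.7% and 14.6%. *GBP2*, which entered the tests only through the treated control arrays, is among them in CONT1, CONT2 and TET1-KD2. Responses below -1 were found for 5 ISGs in CONT1 and 2 in CONT2, beside 14.5% and 14.7% of all genes. The knockdown clones had 0, beside 1.8% and 4.29%. Within each kind, the signed response was higher in the second clone for most ISGs. CONT2 exceeded CONT1 for 28 of 34 (82.4%, against 49.9% of all genes), and TET1-KD2 exceeded TET1-KD1 for 27 (79.4%, against 49.3%). A smaller fall, as of *CMPK2* in both kinds, is counted here as a higher response. The 75th percentile of the signal was lower on the treated CONT1 array (396) than on treated CONT2 (476), and the part of this in the difference was not tested. In all 4 clones, 10 ISGs were higher with the drug (*IRF9*, *IFIT2*, *OASL*, *ISG20*, *MX1*, *IFITM1*, *IFITM2*, *BST2*, *ISG15* and *IFI27*; 29.4% against 23.9% of all genes), and 4 were lower in all 4 (*CMPK2*, *MX2*, *PLSCR1* and *LGALS3BP*; 11.8% against 28.9%). For *MX2* this holds for the brighter probe, while the other was higher in all 4 clones. Increases above 1 in every clone were seen for *MX1*, *BST2* and *IFI27*, which is 8.82% beside 8.93% of all genes.

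Without the drug, no ISG was called between the knockdown and control clones in either direction, beside 0.0102% of all genes higher and 0.0102% lower. None had an unadjusted limma p below 0.05, beside 1619 of the 19688 gene names. The 2 knockdown clones were unlike each other. Untreated TET1-KD1 had the lowest signal of the 4 clones for 22 of 34 ISGs (64.7%), beside 34.3% of all genes, whereas TET1-KD2 was lowest for 4. Relative to the mean of CONT1 and CONT2, the median ISG was 0.56 lower in TET1-KD1 (-0.56, against -0.01 over all genes) and level in TET1-KD2 (-0.01). Differences below -1 were seen for 6 ISGs in TET1-KD1, *IFIT2*, *IFIT3*, *MX1*, *IFITM1*, *BST2* and *IFI6*, and none in TET1-KD2; over all genes the shares below -1 were 7.22% and 2.85%. The difference in TET1-KD1 was -3.93 for *IFITM1*, measured above background. *BST2*, *MX1* and *IFIT3* were not well above background in untreated TET1-KD1, so the measured -4.75 of *BST2* has no rank beside it. TET1-KD1 also had the lower *TET1* signal, but clone, miRNA and degree of depletion cannot be told apart with 1 clone each.

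**Figure D5:**
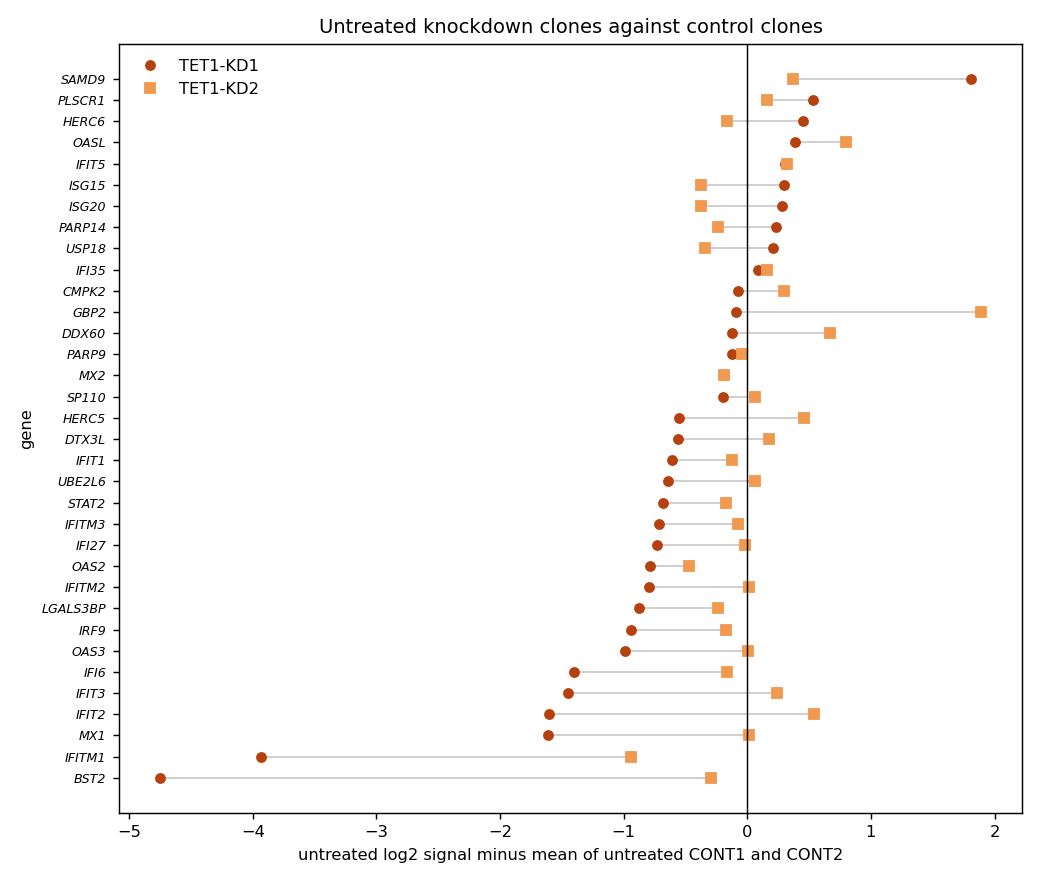
For each of 34 ISGs, the untreated log2 signal of TET1-KD1 (circles) and TET1-KD2 (squares) is plotted as its difference from the mean of untreated CONT1 and CONT2, sorted by TET1-KD1. The squares lie close to 0 for most genes, while 24 circles lie below it and *BST2*, which was not well above background in TET1-KD1, and *IFITM1* stand far to the left.

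The genes upstream of the ISGs were taken as lists of interferons, receptors with their kinases and transcription factors, inhibitors, and nucleic acid sensors with their adaptors. Of 13 interferon genes on the array, 2 had a tested probe. *IFNE*, an interferon of epithelia, was below background on all untreated arrays and reached 6.10, 6.14, 6.19 and 5.34 in treated CONT1, CONT2, TET1-KD1 and TET1-KD2. It was at least 3.50-fold higher in the control clones and at least 2.57-fold higher in the knockdown clones (measured means 3.76 and 6.12, and 3.30 and 5.76). Its probe entered the tests only through the treated arrays, so no test is given for it. *IFNB1* and *IFNG* stayed below 3 on every array. *IL28A*, which encodes an interferon lambda, was not called.

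Among 16 tested receptors, kinases and transcription factors, *IRF7*, the master regulator of interferon alpha genes, was called higher in both kinds of clone. Its log2 signal was between 10.77 and 10.92 on the untreated arrays and 13.24, 13.68, 12.92 and 14.11 after the drug, a rise of 2.61 ± 0.39 in the control and 2.68 ± 0.39 in the knockdown clones (limma adjusted p = 0.00340 and 0.00759). *IRF7* was the only call higher, 6.25% of the 16, beside 20.5% of all genes in the control and 9.45% in the knockdown clones. Called lower in the control clones were *IRF2*, *IFNGR1* and *TYK2* (18.8%, beside 21.3% of all genes). The *IRF2* probe entered the tests only through arrays where it is high, so its call is no support for a fall. Of 6 inhibitors, *PIAS4* fell in the control clones (-0.68 ± 0.18, adjusted p = 0.0256), which is 16.7% of the list beside 21.3% of all genes.

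Of 11 tested sensors and adaptors, *MB21D1* (cGAS, which senses DNA in the cytosol) went in both kinds of clone from below background on every untreated array to 8.02, 8.33, 7.05 and 7.89. It was at least 14.3-fold higher in the control and at least 8.42-fold higher in the knockdown clones (measured means 3.98 and 8.18, and 3.68 and 7.47). Its probe, too, entered the tests only through the treated arrays. *TLR3*, an endosomal sensor of double-stranded RNA, fell in both kinds of clone, by 1.11 ± 0.29 and 1.36 ± 0.29 (limma adjusted p = 0.0235 and 0.0312). In the control clones *DHX58* and *MAVS* rose and the RNA-activated kinase *EIF2AK2* fell as well. With *MB21D1* counted, calls there were 27.3% of the list higher and 18.2% lower, beside 20.5% and 21.3% of all genes. In the knockdown clones they were 9.09% higher and 9.09% lower, beside 9.45% and 3.09%. The RNA sensors *DDX58* (8.59 to 8.98 without, 8.76 to 9.23 with the drug) and *IFIH1* (7.94 to 9.08 and 8.14 to 9.95) were not called.

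The CpG content of the promoter windows was set beside the responses, as the drug inhibits the enzymes that methylate CpG. Where a gene had several entries, the highest ratio among them was used. For 27 tested ISGs with an entry, the ratio of observed to expected CpG correlated with the response at Spearman's rho = -0.395 in the control and -0.400 in the knockdown clones, given as a description across genes, with -0.056 and -0.212 over 10608 genes. The 13 ISGs with a ratio below 0.5 had median responses of 0.42 in the control and 0.98 in the knockdown clones. They ran from -0.60 to 3.56 and from -0.41 to 4.17. Among them were *BST2*, *IFI27*, *IFITM1*, *IRF9* and *ISG20*, but also *IFIT3*, *LGALS3BP*, *IFI35* and *SP110*, whose mean signal was lower with the drug in the control clones. The 14 with a higher ratio, among them *OAS3*, *UBE2L6*, *CMPK2*, *ISG15* and *MX1*, had medians of -0.38 and -0.09. DNA methylation at these promoters was not analysed here.

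Markers of cell types moved with the drug in the same arrays. In the control clones, the epithelial markers *EPCAM* and *KRT8* were called lower and *KRT18* higher by the brightest probe of each. That is 33.3% of the list lower and 16.7% higher, beside 21.3% and 20.5% of all genes. Other tested probes of *KRT8* and *KRT18* were not called there. Markers of other cell types moved as well. The 4 blood-cell markers reported here are *PTPRC*, *CD14*, *CD3E* and *SPI1*. By its brightest probe, *PTPRC* rose by 1.56 ± 0.35 (SE) on the log2 scale in the control clones (limma adjusted p = 0.0145). In the knockdown clones this probe moved by 0.08 ± 0.35 (limma adjusted p = 0.909). A dimmer *PTPRC* probe moved by -0.74 in control and -0.84 in knockdown clones, and was not well above background on any treated array. It entered the tests only through the untreated control arrays, where it is high, so no test is given for it. *CD14* rose in both kinds of clone, by 2.75 ± 0.24 in control and 1.60 ± 0.24 in knockdown clones (adjusted p = 0.000530 and 0.00951). Over all genes, 20.5% and 9.45% were called higher in these comparisons. The summed signal of the 4 was 129 to 183 in untreated and 503 to 516 in treated control clones, and 108 to 150 and 217 to 261 in the knockdown clones. *CD3E* was well above background on 1 array, untreated CONT1 (5.88), and read 4.03 in treated CONT1. *SPI1* was well above background on 3 arrays and moved by -0.37 in the control and 0.43 in the knockdown clones. Its probe entered the tests only through the treated knockdown arrays, so no test is given for it. Of 4 fibroblast markers, *COL1A1* and *DCN* had a tested probe. *COL1A1* rose by 0.99 ± 0.27 in the control clones (limma adjusted p = 0.0285), where 20.5% of all genes were called higher. *DCN* was below background on all untreated arrays. With the drug it was at least 2.69-fold higher in the control and at least 1.70-fold higher in the knockdown clones. Its probe entered the tests only through the treated arrays, where it is high, so no test is given for it. The part of these genes in the ISG values was not tested.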

How the data were processed

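Total RNA of 8 cultures was labeled with Cy3 and hybridized to SurePrint G3 Human GE arrays. The authors deposited spot intensity values per array as written by Agilent Feature Extraction 10.7, which had subtracted the background; the arrays had not been put on a common scale. Per the file headers, probe positions refer to hg19. Here the processed intensity was divided by each array's 75th percentile over spots that are not controls, brought back to the geometric mean of these percentiles, floored at 1 and taken to log2. Spots marked as outliers were left out, none was saturated, and repeated probes were averaged. Of 50599 distinct probes, 27287 were tested. Signals of different probes were not compared.

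Group means of all 8 arrays were fitted with limma 3.58.1 in R 4.3.3, with Benjamini-Hochberg adjustment over all tested probes and a threshold of 0.05. A fold is given as "at least" where 1 group was not well above background on any array, against the lowest signal that was. Same-numbered arrays come from 1 clone, and their deviations from the group means correlated with r = 0.198 (control) and 0.476 (knockdown). The p-values measure the spread between 2 clones per condition. Members, lists and promoter elements were chosen with earlier results of these data known. Named genes are all members, in fixed role groups, the called genes of the upstream lists, and *IFNB1*, *IFNG*, *IL28A*, *DDX58* and *IFIH1*, which were not called and were added after their values were seen.

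The fit was tested on simulated arrays of 27287 probes in the control response. With 10000 probes changed by 2 on the log2 scale it recovered 92.6%, and with 400 changed it recovered 73%. For a change of 1 the shares were 67.2% and 0%. With clone as a block they were 91.2% and 0% for a change of 2, and 58.8% and 0% for a change of 1. The simulated arrays were drawn independently, with spreads shuffled over probes and no effect of clone or slide, unlike the real ones. Alternatives covered background correction, scaling, filters, probe choice, GC and spike-in corrections, the samples fitted, the block, the methods' t-test and leaving out each array. Plots were drawn with matplotlib 3.10.9. A marker gene and a pathway gene of the lists are not reported here.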

Additional observations from a re-analysis of the deposited data

Results flagged for a closer look

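Upstream of the ISGs, 2 genes passed the test of a difference in response to 5-aza-dC between the kinds of clone. For *IRF2*, a transcription factor that competes with IRF1 for the response element, the difference was 2.40 ± 0.41 (SE) on the log2 scale (limma adjusted p = 0.0319). Its log2 signal went from 4.81 and 5.06 to 3.37 and 2.64 in CONT1 and CONT2, and from 3.85 and 4.32 to 4.65 and 4.45 in TET1-KD1 and TET1-KD2. It was not well above background on the treated control and untreated knockdown arrays, so the difference rests on dim signals. Its probe entered the tests only through the untreated control and treated knockdown arrays, where it is high. The call is thus no support for a difference. In the control clones *IRF2* was at least 1.36-fold lower with the drug, and in the knockdown clones at least 1.11-fold higher. For *MAVS*, the mitochondrial adaptor of the RNA sensors, the difference was -1.05 ± 0.21 (adjusted p = 0.0459). The signal went from 11.68 and 11.67 to 12.64 and 12.53 in the control clones and from 11.65 and 11.70 to 11.42 and 11.65 in the knockdown clones. With clone as a block neither passed (limma adjusted p = 0.0614 for *IRF2* and 0.0566 for *MAVS*). Both differences involve the 2 treated control arrays on the later slide, so slide and drug cannot be told apart in them.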

How the results depend on the processing

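Of the counts of called ISGs and the median responses per clone, 178 alternative values kept close to the reported one and 46 moved. The median response changed sign in CONT1 without the filter, and in TET1-KD1 without the filter, with the GC trend subtracted and with spike-in interpolation. With clone as a block for the pairing, 7 ISGs were higher and 5 lower in the control clones and 4 higher in the knockdown clones, and the differences in response stayed at 0. In the control clones, the count of ISGs higher (reported 3) was 1 without a filter on dim probes, 8 with only the compared arrays and 1 by the methods' t-test after Benjamini-Hochberg adjustment, and the count lower (reported 3) was 1, 5 and 1, and 5 with the GC trend subtracted. Leaving out each array gave 0 to 6 higher and 1 to 3 lower. *UBE2L6* passed in all of these. In the knockdown clones, the count higher (reported 1) was 2 with quantile normalization and with the mean over a gene's probes. It was 0 with no filter, with probes above background on all arrays, with only the compared arrays, with the first slide alone, with spike-in interpolation and by the methods' t-test with or without adjustment. The count lower was 1 with the GC trend subtracted. Leaving out each array gave 0 to 4 higher, with 4 without treated TET1-KD1. The difference in response gave 1 higher on probes above background on all arrays, 1 higher and 1 lower by the unadjusted t-test, and 0 to 1 higher with each array left out. Median responses moved to 0.05 in CONT1 and -0.035 in TET1-KD1 without the filter, to -0.22 in TET1-KD1 and 0.092 in TET1-KD2 with the GC trend subtracted, and to -0.027 in TET1-KD1 with spike-in interpolation. In the control clones, calls lost by scaling, background or filter were *OAS3* with median scaling, no filter and the GC trend subtracted (adjusted p = 0.0551, 0.0781 and 0.054), *CMPK2* with normexp background and no filter (0.0765 and 0.052), *OASL* with no filter (0.0591), and *IFIT5* with no filter, the GC trend and spike-in interpolation (0.073, 0.430 and 0.222). The causes were not tested. With 2 clones per condition, changes near 1 are hard to detect, and dim probes bound the folds.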
